A study of Homo sapiens with 9 samples.

Results

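The cornified envelope is the cross-linked protein shell that squamous cells build beneath the plasma membrane as they mature. Scaffold proteins such as involucrin are laid down early, further proteins are added, and calcium-dependent transglutaminases join them through bonds between glutamine and lysine residues. In the lining of the mouth and in well-differentiated oral carcinoma many of these genes, such as IVL, SBSN and TGM1, mark the suprabasal layers. The genes described here are 10 genes of this group or its enzyme family: the envelope proteins IVL, SBSN, KRTDAP and CNFN, the transglutaminases TGM1, TGM2 and TGM3, the calmodulin-like proteins CALML3 and CALML5, and the cysteine protease inhibitor CSTA. They were picked by name out of 78894 gene identifiers, with the differences between knockout and Control libraries already known. Every difference of these 10 genes from Control is therefore a description, given without a test.

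RNA sequencing was done in CAL27, an established line derived from tongue squamous carcinoma, in a study of an enhancer in head and neck carcinoma. The groups were CAL27 Control cells (3 samples) and CRISPR-edited cells named A2ko, A8ko and C9ko (2 samples each), all grown in DMEM with serum and no treatment. The sequence edited in each knockout, and whether a knockout is 1 clone or a pool, are not stated in the labels. The A2ko files held identical values and named the same library in their headers, and so did the A8ko files, so each pair counts as 1 library: 7 distinct libraries remained, 4 of them knockouts. Nothing states that the samples of a group came from separate cultures, so p-values measure only the spread between these samples, which may be technical. Levels are TPM, a share of the library corrected for transcript length, and the depth behind them is unknown. Differences are in log2(TPM + 1), which compresses the change of weakly expressed genes. A gene is called past the fold when the knockout lies beyond all Control libraries on the same side and its mean is at least 1 log2 unit from theirs.

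All 8 squamous epithelial markers, KRT5, KRT14, KRT17, TP63, CDH1, SFN, EPCAM and PERP, were above 1 TPM in every library. Their summed level was 15465 to 16574 TPM in Control and 6712 to 10203 TPM in the knockouts. KRT14 was at 3549 to 4286 TPM in Control and 313 to 1283 TPM in the knockouts. KRT5 was at 8716 to 9147 TPM in Control and 3082 to 5428 TPM in the knockouts. CDH1 was at 100.3 to 106.3 TPM in Control and higher, at 138.3 to 177.0 TPM, in every knockout library. Of 5 leukocyte markers only CD68 reached 1 TPM, of 5 endothelial markers only CDH5, and KDR and EMCN were listed at 0 throughout. Of 5 fibroblast markers 2 or 3 reached 1 TPM, with a sum of 7.36 to 17.7 TPM over all libraries. The endothelial sum was 3.51 to 4.55 TPM in Control and 8.63 to 30.1 TPM in the knockouts, and the leukocyte sum was 28.0 to 32.5 TPM in Control and 14.3 to 66.6 TPM in the knockouts. The part of these markers in the results was not tested. Over the 17100 tested genes, those at 1 TPM or more in at least 2 libraries, the median difference from Control was 0.12 for A2ko, 0.09 for A8ko and 0.11 for C9ko, and the median of ratios as a scale moved these medians to -0.03, 0.02 and 0.00. The differences below contain that shift.

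In Control cells the most abundant of the 10 genes were CALML3, at 137.7 ± 6.66 TPM (SD, n = 3), and CSTA, at 77.4 ± 10.4 TPM. KRTDAP followed at 15.2 ± 2.31 TPM. The remaining genes were weak: TGM1 was at 5.81 ± 0.601 TPM, TGM2 at 5.54 ± 0.372, CALML5 at 4.002 ± 1.02, SBSN at 3.08 ± 0.219, CNFN at 2.18 ± 0.321 and IVL at 2.01 ± 0.0624. The ranges of TGM1 and TGM2 overlapped, as did those of CALML5 and SBSN and those of CNFN and IVL, so their order is not settled. TGM3, the transglutaminase of late epidermal and hair follicle differentiation, was listed at 0 in all 7 libraries. In C9ko, CALML3 and CSTA still led, but TGM2 came next at 25.0 TPM, and KRTDAP, at 1.04 TPM, was above only SBSN, IVL and TGM3.

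**Figure D1:**
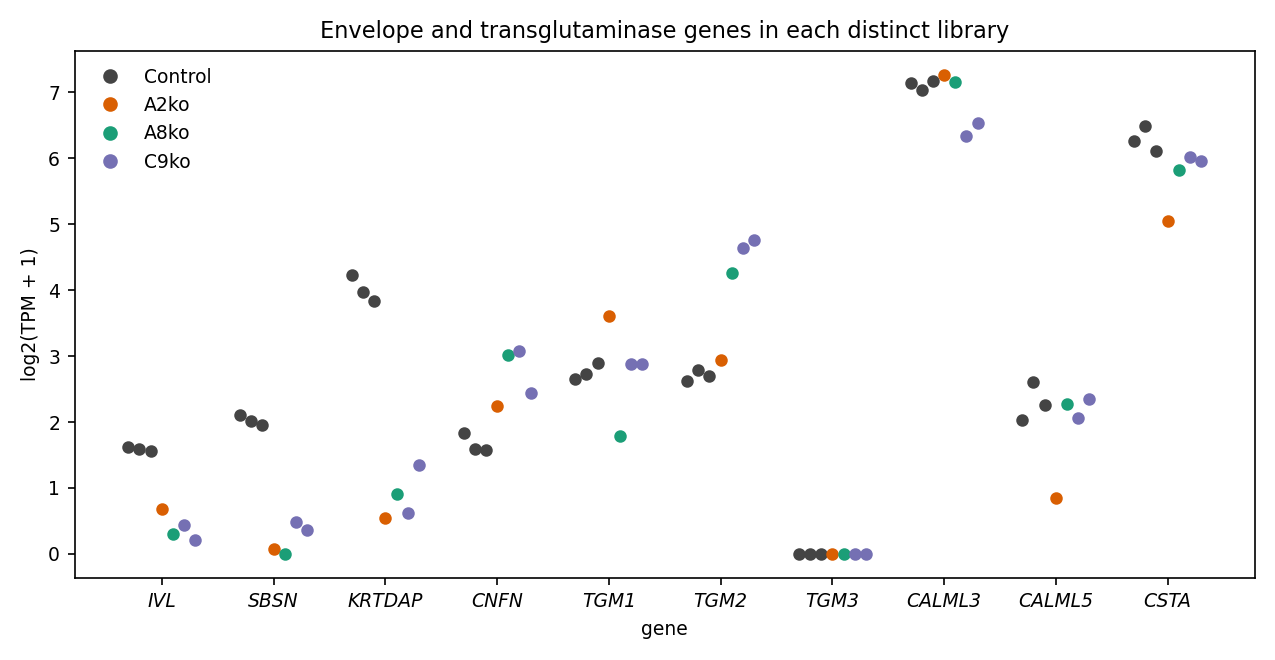
Level of each of the 10 genes in log2(TPM + 1) on the vertical axis, 1 point for each of the 7 distinct libraries, coloured by group. IVL, SBSN and KRTDAP lie lower in all 4 knockout libraries than in all Control libraries, TGM2 lies highest in C9ko, and TGM3 is at 0 everywhere.

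Of the 10 genes, 9 passed the filter on low values. IVL and SBSN passed it only through the Control libraries, so for them a difference was built into the selection, and KRTDAP passed it through Control and 1 C9ko library. In A2ko 4 of the 10 genes were past the fold and lower (SBSN, KRTDAP, CALML5 and CSTA), where 1.53% of all tested genes were, and 0 were past it and higher, against 3.54%. In A8ko 3 were lower (IVL, SBSN and KRTDAP), against 2.68% of tested genes, and 2 were higher (CNFN and TGM2), against 2.05%. In C9ko the same 3 genes were lower, against 1.78%, and the same 2 were higher, against 3.33%. SBSN and KRTDAP were past the fold and lower in all 3 knockouts, as were 0.427% of tested genes. Whatever the size, every knockout library lay below all Control libraries for 4 of the 10 genes (IVL, SBSN, KRTDAP and CSTA), as for 4.61% of tested genes, and above them for 2 (CNFN and TGM2), as for 17.0%. Because the genes were chosen with these contrasts known, nothing is read from these shares. The 3 comparisons also share the Control libraries. In bulk RNA, fewer cells that express a gene and less RNA per cell cannot be told apart.

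**Figure D2:**
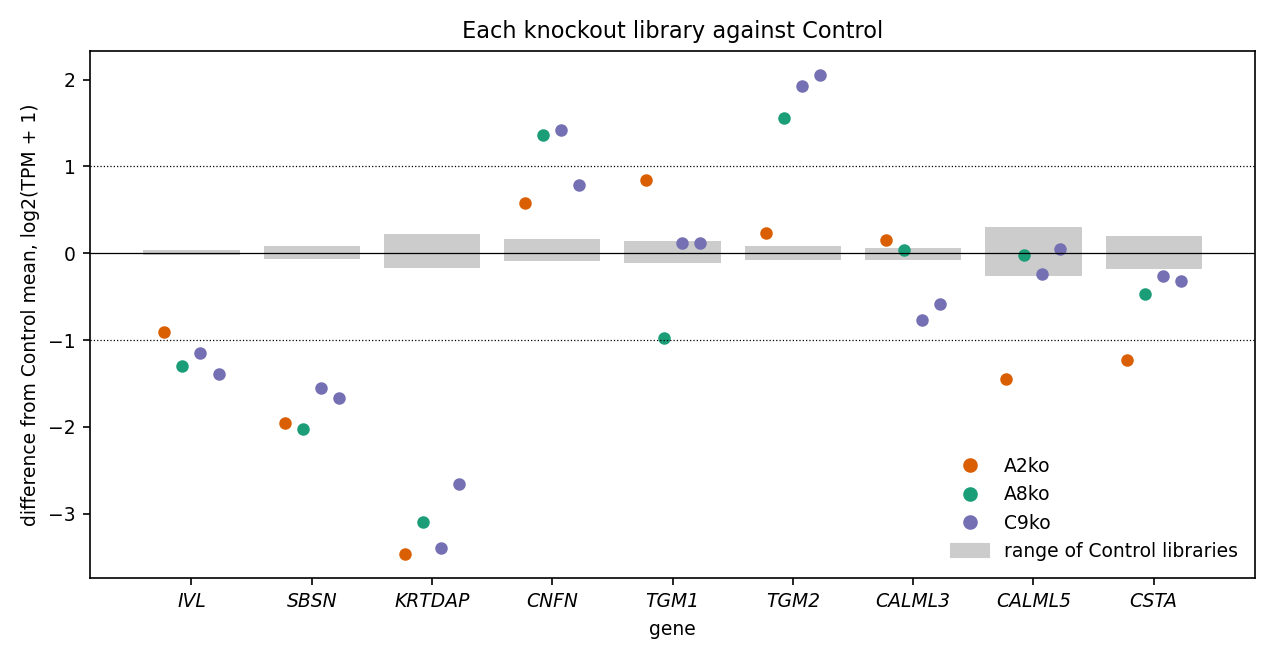
Difference of each knockout library from the Control mean in log2(TPM + 1) for the 9 genes that passed the filter, with the range of the Control libraries as a grey band and dotted lines at 1 log2 unit in each direction. The points of KRTDAP lie more than 2 units below 0 in all 4 knockout libraries, whereas TGM1 lies above the band in A2ko and below it in A8ko.

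KRTDAP encodes a small secreted protein of differentiating keratinocytes (ENSG00000188508, chromosome 19, 35487324 to 35495558, minus strand, protein coding). It was at 17.8, 14.6 and 13.3 TPM in Control, with A2ko at 0.462 and A8ko at 0.881, and the C9ko libraries at 0.533 and 1.55. The groups did not overlap, and the ratio of mean TPM in Control to that in the knockout was 33.0 for A2ko, 17.3 for A8ko and 14.6 for C9ko. On the log2 scale the differences were -3.46, -3.10 and -3.03 (SE 0.23 for C9ko from the limma fit). With a pseudocount of 0.1 they were -4.76, -3.96 and -3.90, and with a pseudocount of 5 they were -1.88, -1.78 and -1.74. In Control only CALML3 and CSTA exceeded the level of KRTDAP.

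SBSN encodes suprabasin, a secreted protein named for its place in the suprabasal layers (ENSG00000189001, chromosome 19, 35523367 to 35528351, minus strand, protein coding). It was at 3.31, 3.04 and 2.88 TPM in the Control libraries. A2ko had 0.0497 TPM, A8ko was listed at 0, and the C9ko libraries had 0.392 and 0.279 TPM. Every knockout library lay below every Control library. The ratio of mean TPM in Control to that in the knockout was 61.8 for A2ko and 9.16 for C9ko. The differences in log2(TPM + 1) were -1.96 in A2ko and -1.61 in C9ko (SE 0.15), and the pseudocount set their size, from -4.40 and -2.88 with 0.1 to -0.68 and -0.60 with 5. The C9ko libraries held more of it than A2ko and A8ko did, at levels where the unknown depth limits any ranking.

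IVL encodes involucrin, the early scaffold onto which other envelope proteins are joined (ENSG00000163207, chromosome 1, 152908545 to 152911886, plus strand, protein coding). It was at 2.08, 2.001 and 1.96 TPM in Control, with A2ko at 0.601 and A8ko at 0.227, and the C9ko libraries at 0.358 and 0.151. The groups did not overlap. The differences were -0.91 in A2ko, which missed the fold by little, -1.30 in A8ko and -1.27 in C9ko (SE 0.16), and with a pseudocount of 0.1 or without mitochondrial transcripts IVL was past the fold in A2ko as well.

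IVL, SBSN and KRTDAP were low together, so the bases before their start sites are shown, taken from RefSeq on GRCh38.p14, where 7 of the 10 genes had an entry. Each is the 250 bases before the start that RefSeq annotates, 5′ to 3′ on the strand of the gene, with matches to TGANTCA, the motif of AP-1 (a FOS and JUN transcription factor dimer), in capitals. The motif reads the same on both strands. The windows lie at chr1:152908296-152908545 (IVL, plus strand), chr19:35528312-35528561 (SBSN, minus strand) and chr19:35490465-35490714 (KRTDAP, minus strand). The gene positions given above are from GENCODE, and the RefSeq start lies inside them by 1 base for IVL, 40 for SBSN and 5094 for KRTDAP, so the KRTDAP window falls within the GENCODE gene.
IVL: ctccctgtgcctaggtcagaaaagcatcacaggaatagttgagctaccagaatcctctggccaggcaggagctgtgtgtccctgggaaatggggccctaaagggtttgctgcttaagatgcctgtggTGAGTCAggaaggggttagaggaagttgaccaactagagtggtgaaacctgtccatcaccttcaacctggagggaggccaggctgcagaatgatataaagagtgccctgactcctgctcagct
SBSN: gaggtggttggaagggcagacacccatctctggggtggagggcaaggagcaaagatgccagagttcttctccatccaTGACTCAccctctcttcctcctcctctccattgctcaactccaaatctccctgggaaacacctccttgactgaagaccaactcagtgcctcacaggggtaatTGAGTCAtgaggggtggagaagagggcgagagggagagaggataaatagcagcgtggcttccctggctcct
KRTDAP: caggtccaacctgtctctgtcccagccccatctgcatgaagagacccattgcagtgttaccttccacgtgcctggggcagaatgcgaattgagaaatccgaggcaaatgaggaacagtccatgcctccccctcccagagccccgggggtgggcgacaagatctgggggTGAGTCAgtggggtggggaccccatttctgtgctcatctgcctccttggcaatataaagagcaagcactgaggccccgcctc

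The AP-1 letters began 123 bases before the start of IVL, 173 and 71 before that of SBSN, and 82 before that of KRTDAP. They were in 6.57% of all 35116 RefSeq windows of the same length. The windows of CNFN, TGM3, CALML3 and CALML5 held none, and TGM1, TGM2 and CSTA had no entry. TATAAA, the TATA box, lay 30 bases before the start of IVL, KRTDAP and TGM3 and was found in 10.7% of windows. AACCNGTT (Grainyhead-like) and ATTGTT (SOX) were in none of the 7 windows, with shares of 1.49% and 8.98% of all windows, and GGGCGG (SP/KLF) was in that of CNFN alone, with a share of 42.6%. Both strands were searched. A match describes letters only and shows no binding.

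SBSN and KRTDAP are near neighbours with DMKN (dermokine), another secreted protein of stratified epithelium, between them. DMKN (ENSG00000161249, chromosome 19, 35497220 to 35513658, minus strand) was at 145.1, 140.2 and 140.2 TPM in Control, with A2ko at 213.7 and A8ko at 199.04, and the C9ko libraries at 211.5 and 203.4. It thus lay above the Control range in each knockout library while the genes on both sides of it lay below. In C9ko DMKN rose by 0.55 on the log2 scale (SE 0.06, adjusted p 0.000763 from limma, 2 of 2 libraries). The motif TGANTCA was present in 2 of the 3 DMKN windows, beginning 69 and 92 bases before their RefSeq starts. Those starts lie 11747 and 9 bases inside the GENCODE gene, and which start these cells use was not tested. Over the 57 tested genes within 2 Mb on either side of KRTDAP, the median difference was 0.12 for A2ko, 0.04 for A8ko and 0.10 for C9ko, close to the medians of all genes given above.

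**Figure D3:**
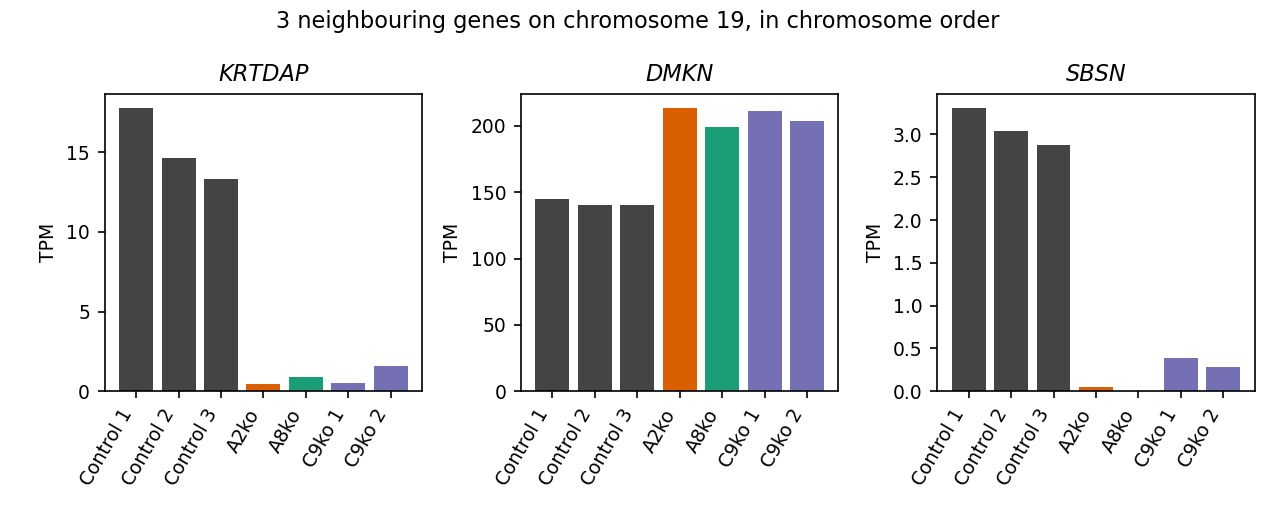
TPM of KRTDAP, DMKN and SBSN, in chromosome order, as 1 bar for each of the 7 distinct libraries; each vertical axis starts at 0 and has its own scale. DMKN is at 140 to 145 TPM in Control and 199 to 214 TPM in the knockouts, while both neighbours are lower in every knockout library.

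CNFN encodes cornifelin, an envelope component (ENSG00000105427, chromosome 19, 42387019 to 42390287, minus strand, protein coding). It was at 2.55, 2.02 and 1.98 TPM in Control, with A2ko at 3.75 and A8ko at 7.13, and the C9ko libraries at 7.47 and 4.45. All 4 knockout libraries lay above all Control libraries, opposite to IVL, SBSN and KRTDAP. The differences were 0.58 in A2ko, 1.36 in A8ko and 1.10 in C9ko (SE 0.20). The C9ko value leaned on replicate 1, without which it was 0.78 and no longer past the fold.

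TGM2 is the widely expressed tissue transglutaminase, which acts inside cells and on extracellular matrix (ENSG00000198959, chromosome 20, 38127387 to 38166578, minus strand, protein coding). It was at 5.17, 5.92 and 5.51 TPM in Control, with A2ko at 6.70 and A8ko at 18.1, and the C9ko libraries at 23.9 and 26.2. A8ko and C9ko stood far above Control, with ratios of mean TPM of 3.28 and 4.52. A2ko lay just above the Control range on the deposited scale, by 0.24 log2 units, but within it, at 0.09, once libraries were scaled by the median of ratios. The 33 tested genes within 2 Mb had a median difference of 0.20 in C9ko, against 1.99 for TGM2 itself (SE 0.09). Limma called 13 of these neighbours higher, or 39.4%, and 2 lower, or 6.06%, where 22.0% and 7.42% of all tested genes were called. TGM2 overlaps RPRD1B on the other strand, which was at 48.9 to 61.2 TPM in all libraries, and the use of strand in counting is not stated in the sources used here.

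TGM1 is the membrane-anchored transglutaminase of keratinocytes, whose loss causes lamellar ichthyosis (ENSG00000092295, chromosome 14, 24249114 to 24264432, minus strand, protein coding). It was at 5.29, 5.66 and 6.47 TPM in Control, with A2ko at 11.2, A8ko at 2.46 and both C9ko libraries at 6.34. A2ko lay above the Control range by 0.84 log2 units, A8ko lay below it, at -0.97, and C9ko lay within it, at 0.11 (SE 0.10). In A8ko TGM1 was past the fold once libraries were scaled by the median of ratios, without mitochondrial transcripts, with a pseudocount of 0.1 and without Control replicate 1.

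The balance of these transglutaminases differed between libraries. TPM of TGM2 divided by that of TGM1 averaged 0.959 ± 0.0981 over the Control libraries (SD, n = 3). It was 0.600 for A2ko and 7.39 for A8ko, and 3.76 and 4.13 for the C9ko libraries. A2ko lay below the Control range and the other knockout libraries above it. Summed, both enzymes reached 10.5 to 12.0 TPM in Control, with A2ko at 17.9 and A8ko at 20.6, and the C9ko libraries at 30.2 and 32.5. In A2ko TGM2 made up 37.5% of that sum, in A8ko 88.1%, and in C9ko 79.0% and 80.5%, against 46.0% to 51.1% in Control. A ratio within a library does not depend on scaling between libraries.

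**Figure D4:**
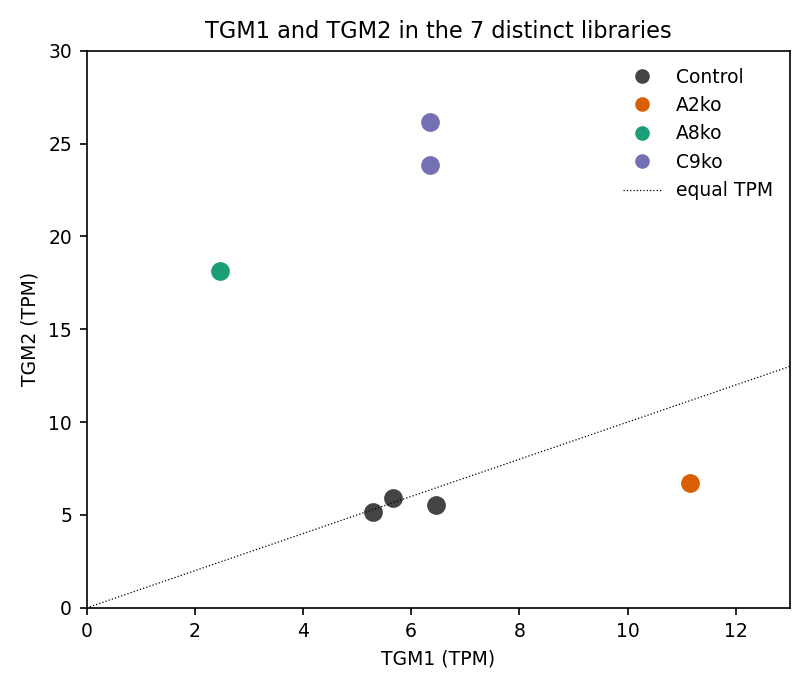
TPM of TGM1 (horizontal) against TPM of TGM2 (vertical), 1 point for each of the 7 distinct libraries, with a dotted line where both are equal. The Control libraries lie near the line, A2ko lies to the right at 11.2 TPM of TGM1, and A8ko and C9ko lie above it at 18.1 to 26.2 TPM of TGM2.

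TGM3 (ENSG00000125780, chromosome 20, 2296001 to 2341078, plus strand, protein coding) stayed at a listed 0 in C9ko, while 47 of the 49 tested genes within 2 Mb of it, or 95.9%, were above the Control mean there, against 65.0% of all tested genes. The median of those neighbours was 0.40 in C9ko, 0.06 in A2ko and -0.02 in A8ko. Of the 6 other members of the transglutaminase family (TGM4, TGM5, TGM6, TGM7, F13A1 and EPB42), 0 reached 1 TPM in at least 2 libraries and 3 were listed at 0 throughout. The highest level among them was 0.561 TPM, for TGM5 in A2ko.

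CALML3 and CALML5 are calmodulin-like calcium sensors of differentiating epithelium, and CALML5 is known to bind TGM3. Both lie on chromosome 10, CALML3 at 5524009 to 5526771 on the plus strand (ENSG00000178363) and CALML5 at 5498697 to 5499555 on the minus strand (ENSG00000178372), and both are protein coding. CALML3 was at 139.7, 130.3 and 143.2 TPM in Control, with A2ko at 153.1 and A8ko at 141.3, and the C9ko libraries at 80.1 and 91.6. C9ko lay below the Control range, at -0.68 log2 units (SE 0.08). The excess of 0.15 in A2ko became -0.01, within the Control range, once libraries were scaled by the median of ratios. CALML3-AS1, on the other strand, was at 3.56 to 5.90 TPM in all libraries.

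CALML5 was at 3.10, 5.11 and 3.80 TPM in Control, with A2ko at 0.805 and A8ko at 3.85, and the C9ko libraries at 3.17 and 4.08. Here A2ko stood apart, at -1.45 log2 units, while A8ko and C9ko lay within the Control range. The low knockout was thus A2ko for CALML5 and C9ko for CALML3, although the genes are close neighbours. With 1 library each in A2ko and A8ko, no test was made between knockouts.

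CSTA encodes cystatin A, an inhibitor of cysteine proteases that is itself built into the envelope (ENSG00000121552, chromosome 3, 122325244 to 122341972, plus strand, protein coding). It was at 75.7, 88.5 and 67.9 TPM in Control, with A2ko at 32.3 and A8ko at 55.4, and the C9ko libraries at 64.1 and 61.5. Every knockout library lay below every Control library, but only A2ko was past the fold, at -1.23. A8ko was at -0.47 and C9ko at -0.29 (SE 0.11), not far beyond the Control SD of 0.19.

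For genes at least 1 log2 unit from Control in some knockout, the nearest profiles in log2(TPM + 1) were sought among 17017 tested genes. Nearness was the root mean square distance of the 3 group differences. The nearest to KRTDAP was SOX2, a transcription factor of squamous carcinoma, at a distance of 0.31, with 9.87 to 10.5 TPM in Control and 0.1498 to 0.483 TPM in the knockouts. NRARP, a Notch pathway regulator, was nearest to IVL at 0.05, with 108.3 to 128.3 TPM in Control and 44.4 to 61.3 TPM in the knockouts. CYP1A1 was nearest to SBSN (0.17), KRT80 and RAB42 to TGM2 (0.14 and 0.16), TRIB3 and GADD45A to CALML5 (0.11 and 0.14), and CAV1 to CSTA (0.06). The 2 nearest to CNFN have no symbol. These distances describe 3 values per gene and carry no test. The scale compresses weak genes, so near genes need not share a ratio of TPM. Mean TPM of IVL in Control was 3.35, 8.88 and 7.91 times that in A2ko, A8ko and C9ko, more than the levels of NRARP allow. For SBSN the ratio was 61.8 in A2ko and 9.16 in C9ko. CYP1A1 was at most 20.9 TPM in Control and at least 4.68 TPM in the knockouts. IVL and SBSN also passed the filter only through Control.

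The other genes of the pathway were set against Control in C9ko, the only knockout with 2 distinct libraries. The 84 genes in 6 lists comprised other envelope proteins, other transglutaminases, enzymes of the lipid envelope and of protein processing, cystatins and cathepsins, calmodulins, and regulators of differentiation. Of these, 52 were tested and 12 were listed at 0 in every library. Limma called 19 higher, or 36.5%, and 16 lower, or 30.8%, at an adjusted p-value under 0.05, against 22.0% and 7.42% of all tested genes. Because the lists were chosen with earlier results of these data known, nothing is read from these shares. The median was 0.04 over the 52 genes and 0.11 over all tested genes. The higher direction took 74.8% of all calls with TPM as deposited, 56.1% with libraries scaled by the median of ratios and 60.4% without mitochondrial transcripts.

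Among the other envelope proteins 8 of 24 were tested, and 5 fell, 1 rose and 2 did not pass. SCEL (sciellin), an envelope precursor, was at 9.66, 8.68 and 9.46 TPM in Control and fell by 1.97 on the log2 scale in C9ko (SE 0.12, adjusted p 8.93e-05 from limma), to 1.36 and 1.88 TPM. PI3 (elafin), a protease inhibitor with transglutaminase substrate repeats, was at 92.4, 90.2 and 99.7 TPM in Control and fell by 1.97 on the log2 scale (SE 0.10, adjusted p 4.03e-05 from limma), to 25.9 and 21.0 TPM. Both were past the fold and lower in all 3 knockouts: SCEL was at 2.13 TPM in A2ko and 1.52 in A8ko, and PI3 at 9.49 and 6.32 TPM. DMKN was the 1 that rose. LORICRIN, the main protein of the mature epidermal envelope, and CRCT1 were listed at 0 in all 7 libraries. So were 4 of the 5 late cornified envelope genes chosen for this list, and the other, LCE3D, reached at most 0.285 TPM. FLG (filaggrin), named after its values were seen and too low to be tested, was at 0.346 to 0.434 TPM in Control and 0.0932 to 0.130 TPM in the knockouts.

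Among the enzymes 17 of 23 were tested, with 8 higher, 5 lower and 4 not past the threshold. PADI2, a deiminase that converts arginine to citrulline, rose by 1.81 on the log2 scale in C9ko (SE 0.08, adjusted p 2.11e-05 from limma), from 5.43, 5.54 and 5.69 TPM to 21.6 and 22.3 TPM. It was at 8.40 TPM in A2ko and 7.47 in A8ko. The other deiminases listed, PADI3 and PADI1, named after their values were seen, lay below the Control range in C9ko. PADI3 fell by 0.95 on the log2 scale (SE 0.08, adjusted p 0.000250 from limma), from 17.1, 16.3 and 16.8 TPM to 7.82 and 8.58 TPM. PADI1, at 1.73 to 1.99 TPM in Control and 1.32 and 1.13 TPM in C9ko, was not called. PADI3 and PADI1 were also below the Control range in A2ko, at 3.30 and 0.264 TPM. In A8ko both were above it, at 19.7 and 2.18 TPM. SPINK5, the inhibitor of epidermal kallikreins lost in Netherton syndrome, was at 2.999, 2.67 and 2.12 TPM in Control, 0.666 and 0.523 TPM in the C9ko libraries, 0.663 TPM in A2ko and 0.596 TPM in A8ko. It passed the filter only through the Control libraries, so a fall was built into its selection and no p is given. It is counted among the genes called lower here and in the total over the lists. CASP14 passed the filter only through the C9ko libraries, at 1.88 and 1.39 TPM, so a rise was built into its selection. It is counted among the genes called higher here and in the total over the lists.

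Among the 10 cystatins and cathepsins, all tested, 4 rose, 1 fell and 5 did not pass. CST6 (cystatin M/E), which holds in check the cathepsins and legumain that process transglutaminases, rose by 2.18 on the log2 scale in C9ko (SE 0.14, adjusted p 9.85e-05 from limma), from 7.45, 7.27 and 10.04 TPM to 42.8 and 38.2 TPM. It was at 16.1 TPM in A2ko and 24.6 TPM in A8ko, so all knockout libraries lay above Control, in the direction opposite to CSTA. CTSD, a lysosomal aspartic protease, fell by 0.30 on the log2 scale (SE 0.08, adjusted p 0.0331 from limma). This call was lost without Control replicate 1 (limma adjusted p 0.0832), without Control replicate 3 (0.0941), without a filter (0.129) and with the replicate number as a block (0.172). Without C9ko replicate 2 the difference was -0.22. Over the alternatives that kept both C9ko libraries, the limma adjusted p ran from 0.00498 to 0.172. The lowest value came from counting the identical A2ko and A8ko files as separate libraries. Apart from that setting the lowest limma adjusted p was 0.0113, without mitochondrial transcripts.

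Of the 4 calmodulin genes tested 2 rose in C9ko and 2 did not pass. CALM2, which encodes calmodulin, rose by 0.97 on the log2 scale (SE 0.25, adjusted p 0.0260 from limma), with unequal C9ko libraries at 547.9 and 295.5 TPM against 188.9 to 238.2 TPM in Control. Without C9ko replicate 1 the difference was 0.52. The call was lost without Control replicate 2 (limma adjusted p 0.0797), without Control replicate 3 (0.0790) and with libraries scaled by the median of ratios (0.0620). It was also lost without mitochondrial transcripts (0.0538) and without a filter (0.199). Over the alternatives that kept both C9ko libraries, the limma adjusted p of CALM2 ran from 0.00596 to 0.199.

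Of 16 regulators 13 were tested, with 4 higher, 5 lower and 4 not past the threshold. ZNF750, a transcription factor of terminal epidermal differentiation, fell by 1.47 on the log2 scale in C9ko (SE 0.08, adjusted p 6.14e-05 from limma), from 14.1, 14.1 and 14.5 TPM to 4.69 and 4.31 TPM. It was at 8.82 TPM in A2ko and 1.46 TPM in A8ko. OVOL1, which restrains proliferation as epithelial cells mature, rose by 1.13 on the log2 scale (SE 0.10, adjusted p 0.000330 from limma), from 6.001, 5.37 and 6.49 TPM to 14.8 and 13.6 TPM. OVOL1 was at 5.87 TPM in A2ko, within the Control range, and at 11.3 TPM in A8ko. Both C9ko libraries lay beyond all Control libraries for SCEL, PI3, DMKN, PADI2, CST6, CTSD, CALM2, ZNF750 and OVOL1.

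**Figure D5:**
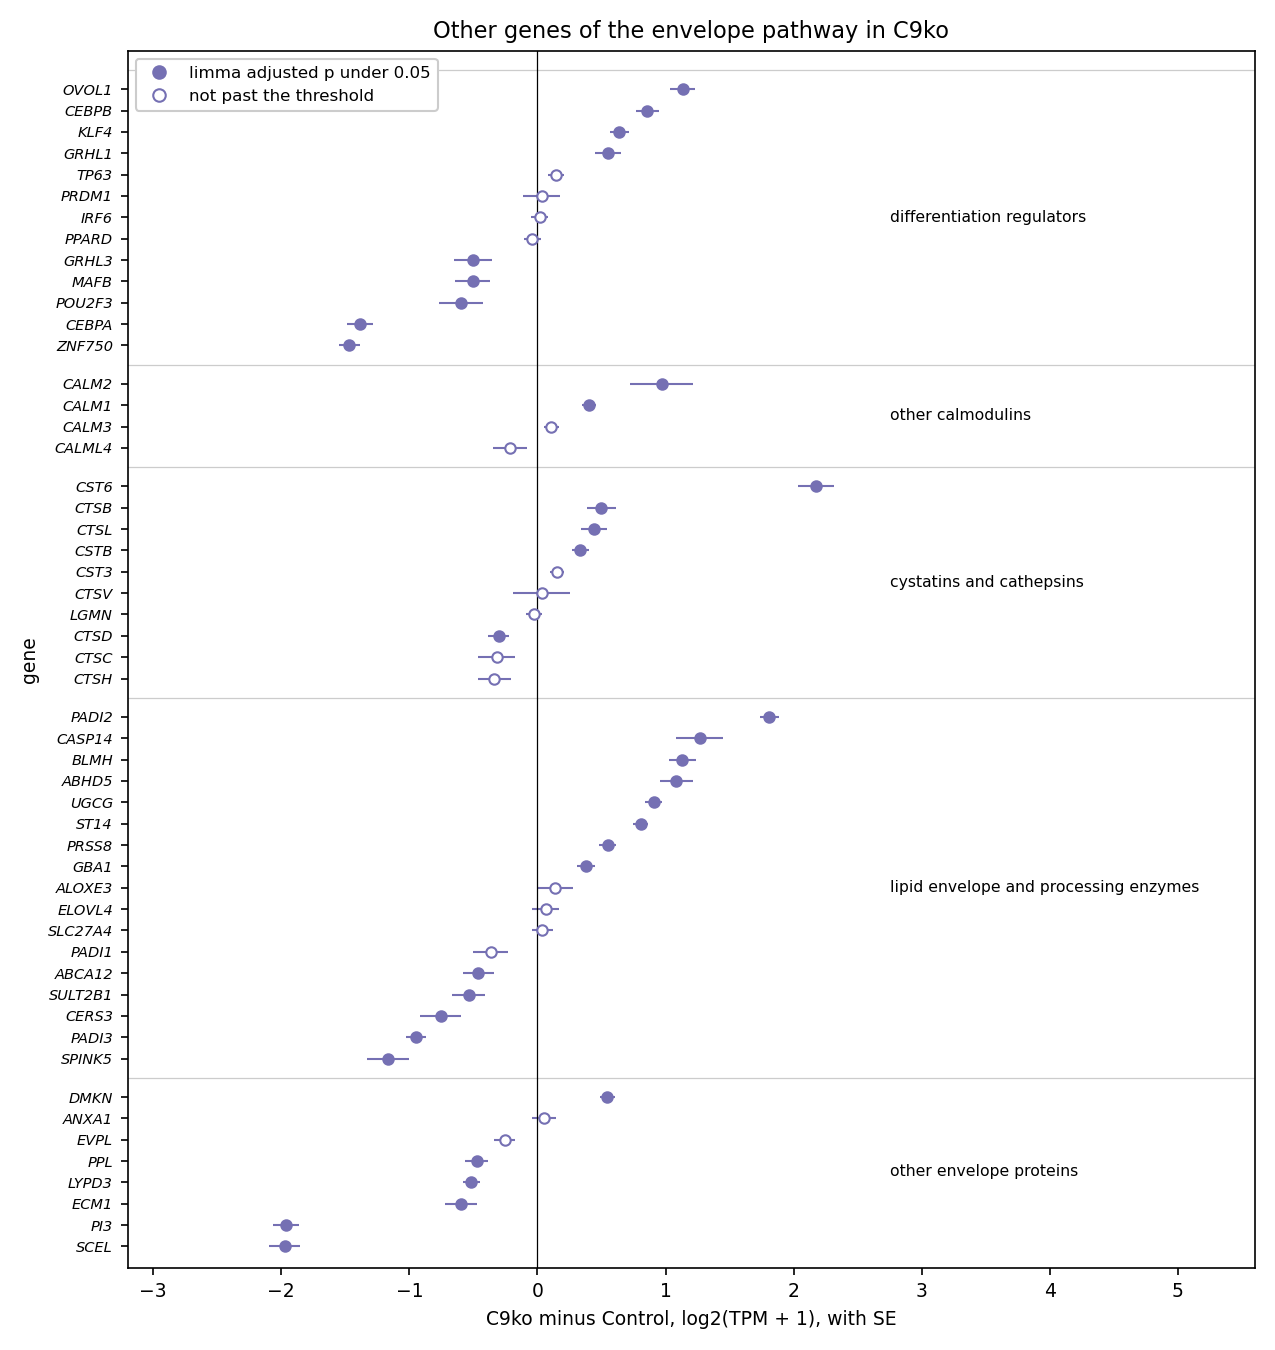
Difference of C9ko from Control in log2(TPM + 1) with its SE on the horizontal axis, for the 52 tested genes of the pathway lists, grouped by list on the vertical axis; filled points passed limma at an adjusted p-value under 0.05. Among the other envelope proteins 5 of 8 fell and DMKN rose, whereas the enzymes hold 8 rises and 5 falls. SPINK5 passed the filter on low values only through Control and CASP14 only through C9ko, and both are drawn as filled points.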

How the data were processed

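The authors deposited 1 table per sample with a TPM value for each of 78894 Ensembl identifiers, in units of TPM as the file names state, a length-scaled share of a library. Per the labels, polyA RNA was taken with TRIzol and libraries were made by the dUTP method. The genome build was hg38 per the submitters' processing notes; aligner, quantification tool and annotation are not given in the sources used here. TPM keeps no depth, so no counting interval is given. A rise of abundant genes lowers all others in TPM; mitochondrial transcripts took 17.9% to 26.9% of a library.

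Groups came from the sample titles. The members and gene lists were chosen with earlier results of these data known. Of the identifiers, 61463 were matched to a symbol through a gene name table; positions came from GENCODE release 29 on GRCh38. Genes at 1 TPM in at least 2 of 7 distinct libraries (17100) were analysed as log2(TPM + 1). C9ko was set against Control with limma 3.58.1 in R 4.3.3 (all 4 groups in the fit, eBayes with trend, two-sided, Benjamini-Hochberg adjustment over all tested genes), checked on simulated data. Of the pathway lists, the text names the largest called rise and fall in C9ko per list and genes past the fold in all 3 knockouts; likeness was ranked over the 3 group differences, 2 genes per member. Alternatives were the pseudocount, the filter, the scaling, each Control and C9ko library left out, all 9 files kept, C9ko and Control alone, and the replicate number as a block.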

Additional observations from a re-analysis of the deposited data

Results flagged for a closer look

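TGM1 and CALML3 stood out because knockouts lay on opposite sides of the same Control libraries. For TGM1 the A2ko library was above the Control range and the A8ko library below it, with 1.81 log2 units between them. For CALML3 the A2ko library was above the range and both C9ko libraries below it, with 0.83 log2 units between the group values. On the scale of the median of ratios A2ko was within the Control range for CALML3. These differences between knockouts were not tested.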

How the results depend on the processing

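With a pseudocount of 5, the members past the fold numbered 2 in A2ko, 2 in A8ko, 2 in C9ko and 1 (KRTDAP) in all 3 knockouts; with a mean of at least 5 TPM the counts were again 2, 2, 2 and 1. In the other settings run, these counts stayed within 1.5 times those reported, and leaving out 1 library at a time gave 4 in A2ko, 5 to 6 in A8ko, 4 to 5 in C9ko and 2 in all 3. The 5038 genes called in C9ko became 8335 with all 9 files as separate libraries, 3248 with the replicate block, and 3334 (without C9ko replicate 2) to 4204 when 1 library was left out. The pathway genes called lower, 16, became 9 without a filter, 9 with a mean of at least 5 TPM, 10 with the replicate block, and 9 (without C9ko replicate 2) to 12 when 1 library was left out; those called higher, 19, were 16 to 22. With all 9 files, the identical A2ko and A8ko files enter the fit as replicates without spread, which lowers the SE. The 8335 is therefore not a count over independent libraries. The cause of the changes in the other settings was not tested. The sample titles do not say whether replicates of the same number were handled together, and a batch shared by number was not tested. The difference between C9ko replicates 1 and 2 correlated across genes with that between Control replicates 1 and 2 at r = -0.04. The block ended the call of CTSD (limma adjusted p 0.172). SCEL, PI3, DMKN, PADI2, CST6, OVOL1 and ZNF750 stayed called in every alternative that tested them. With pseudocounts of 5 and 0.1 the difference of SCEL was -1.11 and -2.46. Leaving out mitochondrial transcripts was chosen after seeing the data. Depth is unknown, so values below 1 TPM are imprecise to an unknown degree.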
